A study of Mus musculus with 9 samples.

Results

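The cytochrome P450 genes are heme-containing monooxygenases, and 46 of them were described here in mouse kidney. A gene was a member if GENCODE vM21 (GRCm38) annotates it as protein coding, its symbol is Cyp followed by a family number, a subfamily letter and a gene number, and its mean over the 9 libraries was at least 0.5 CPM, which are counts per 1000000 counts of the library. Of 99 annotated genes with such a symbol, 46 passed, and 22 had 0 reads in all libraries. The members fall into 11 families and 26 subfamilies, and all 46 also passed the filter on low counts, as 16646 of 54532 listed genes did.

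PolyA RNA of whole kidney was sequenced in 3 groups of 3 libraries from C57BL/6J mice. The first group was wild type (WT), the second was Trex1-/- given PBS, and the third was Trex1-/- given SN-011 for 2 weeks. TREX1 is an exonuclease that removes cytosolic DNA, and SN-011 blocks STING, which relays the signal of the DNA sensor cGAS. Per the study's methods, the Trex1-/- mice came from a heterozygous intercross and were treated from 1 month of age by daily intraperitoneal injection of 10 mg/kg SN-011 or of a PBS vehicle with 1% Tween 80, whereas wild-type mice were purchased at 4 to 8 weeks of age. No treatment is given for the wild-type mice, so genotype, origin and injection cannot be told apart.

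P450 enzymes of microsomes take electrons from P450 oxidoreductase, and those of mitochondria take them from ferredoxin. In kidney they are concentrated in the proximal tubule, where they turn arachidonic acid into hydroxylated and epoxidised lipids, activate and inactivate vitamin D, and oxidise steroids and foreign compounds. Many rodent P450 genes of liver and kidney are known to differ between the sexes.

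The libraries held 16118813 to 21928965 counts, and 3 counts corresponded to 0.137 to 0.186 CPM, the most that a count of 0 allows (counting error only). Trex1 had 0 assigned reads in every library, those of wild type too, so it checked no label. The labels give no sex. The Y-chromosome transcripts Uty, Eif2s3y, Kdm5d and Ddx3y summed to 153 to 188 CPM in 5 libraries, namely WT replicate 3, the 3 PBS libraries and SN-011 replicate 2. In the other 4 libraries they summed to at most 0.377 CPM, and Xist stood at 434 to 503 CPM against at most 0.453 CPM in the first 5. These are called Y libraries and Xist libraries. The labels number the libraries without naming animals. Wild type and SN-011 each held both kinds, which 1 mouse could not give, but it is not stated that every library was a separate mouse, so the p-values measure only the spread between these samples, part of which may be technical. The PBS group consists of Y libraries, so a difference between PBS and another group and a difference between the kinds of library cannot be told apart unless the fit holds the kind fixed. Proximal tubule markers summed to 12915 to 15458 CPM. Adrenal markers summed to 5.04 to 9.74 CPM, with Nr5a1 and Th at 0, and hepatocyte markers to 37.3 to 57.4 CPM. Of the 10 proximal tubule markers, Slc5a2 was called lower in PBS than in wild type, and Slc22a6 was called higher and Miox lower in Y than in Xist libraries, and the part of this in the P450 results was not tested.

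The results turned on whether a library was of the Y or the Xist kind, so the sequences before the RefSeq starts of 4 members that differed between them are shown first. Promoters were taken from RefSeq on GRCm38.p6, in which 32 members had 36 promoters. Each run below ends at the last base before any annotated exon, runs 5′ to 3′ on the strand of the gene, and covers at most the 150 bases upstream of the RefSeq start. Cyp2j13 (chr4:96077547-96077690, minus strand), Cyp4b1 (chr4:115647724-115647871, minus strand) and Cyp2d9 (chr15:82452227-82452333, plus strand) were higher in the Y libraries. The Cyp2d9 run lies before the RefSeq start but within the longer GENCODE span of the gene given below. Cyp2d26 (chr15:82794295-82794395, minus strand), which lies on the same chromosome as Cyp2d9, was lower.
Cyp2j13: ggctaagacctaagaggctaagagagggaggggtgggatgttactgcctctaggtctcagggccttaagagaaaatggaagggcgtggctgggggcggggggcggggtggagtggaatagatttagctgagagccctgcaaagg
Cyp4b1: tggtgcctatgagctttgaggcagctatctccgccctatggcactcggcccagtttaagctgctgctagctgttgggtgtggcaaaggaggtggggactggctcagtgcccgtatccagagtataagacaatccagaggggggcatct
Cyp2d9: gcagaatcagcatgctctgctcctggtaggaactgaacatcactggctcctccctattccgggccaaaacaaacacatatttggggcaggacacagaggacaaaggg
Cyp2d26: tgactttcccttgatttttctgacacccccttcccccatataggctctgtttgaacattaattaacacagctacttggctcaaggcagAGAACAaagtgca
Capitals mark a match to TATAAA, TTCNNNGAA or TGTTCT on either strand. The only such match in the printed bases is AGAACA in Cyp2d26, the reverse complement of TGTTCT. Outside the printed bases but within the 250 searched, Cyp4b1 matched TTCNNNGAA and TGTTCT, and Cyp2d9 and Cyp2d26 matched TATAAA. Over the whole 250 bases upstream and both strands, TATAAA was found in 9 of 36 member promoters (25%) and in 12.4% of 32851 promoters in all. Matches to TTCNNNGAA stood in 8.33% of member promoters and 7.02% of all, and matches to TGTTCT in 11.1% and 16.1%. The motif GTTAAT stood in 16.7% and 6.43%, AGGTCA in 8.33% and 14.0%, and GCGTG in 27.8% and 28.2%. None of the 6 motifs contains another, and a match is a description only.

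Levels within the kidney were compared between genes as CPM of the library total per kilobase of exon, the mean over 9 libraries. Elsewhere scaled CPM were used, which are CPM over the counts in tested genes after TMM scaling, a trimmed mean of the log ratios between libraries, and values given per library are on this scale unless another is named. The 46 members were dominated by a few genes. Cyp2j5 stood highest at 432.8 per kilobase, followed by Cyp4b1 at 377, Cyp4a14 at 229, Cyp2d26 at 220, Cyp4a10 at 213 and Cyp2e1 at 207. These 6 genes made up 74.2% of the summed level, and the first 12 made up 90.7%. The other 6 of the 12 were Cyp4a31, Cyp2j11, Cyp2a4, Cyp2d9, Cyp2a5 and Cyp2d12, at 106, 91.8, 63.6, 53.0, 31.7 and 25.8 per kilobase.

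**Figure D1:**
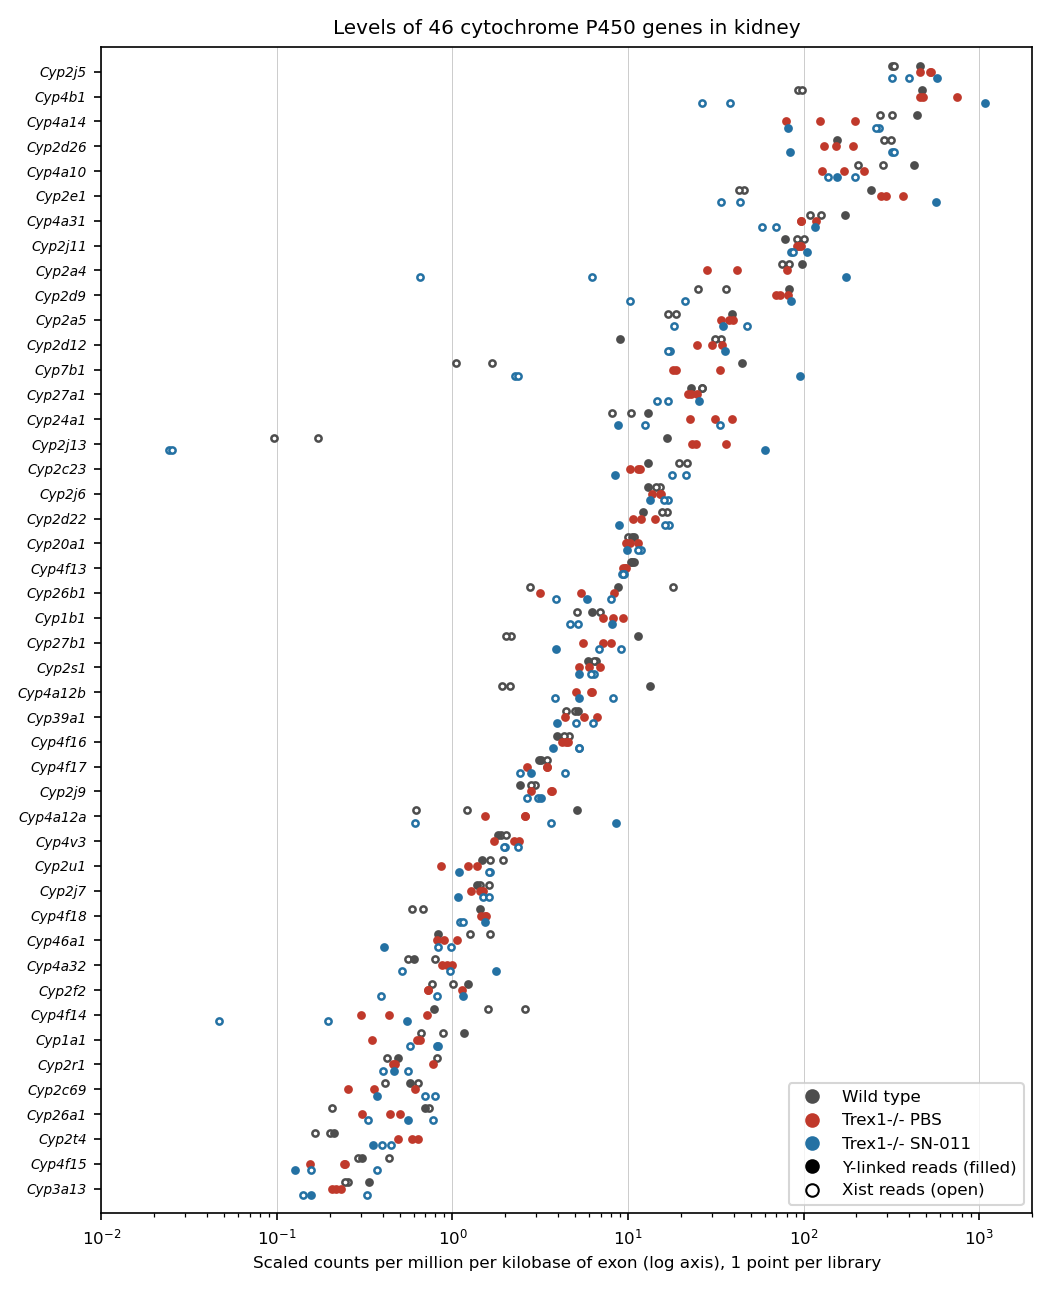
Level of each of the 46 members in every library, as scaled CPM per kilobase of exon on a log axis, with a point for each library, in the order of the mean CPM of the library total per kilobase. Cyp2j5 and Cyp4b1 lead the order and Cyp3a13 ends it.

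By subfamily, Cyp2j (6 of 8 annotated genes were members) held 24.8% of the summed level and Cyp4a (6 of 8) held 24.6%. The single Cyp4b gene held 16.7%, Cyp2d (4 of 8) held 13.8% and the single Cyp2e gene 9.16%. Cyp2c and Cyp3a, which are prominent in liver, were low here, with 2 of 15 Cyp2c genes at 0.692% and 1 of 9 Cyp3a genes at 0.0104%. At the edge of the rule, Cyp4f15 (0.592 CPM of the library total), Cyp2t4 (0.640) and Cyp3a13 (0.694) were just inside. Cyp2j8 (0.460), Cyp17a1 (0.439) and Cyp2d10 (0.436) were just outside.

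All members together took 0.378 to 0.729% of a library's counts. The sum was 5108 ± 1364 CPM of the library total in wild type, 5772 ± 440 in PBS and 5021 ± 1970 in SN-011 (mean ± SD, n = 3 each), and the 3 ranges overlapped. The 5 Y libraries held 5316 to 7292 CPM and the 4 Xist libraries 3779 to 4507 CPM, with no overlap. The makeup differed as well. Cyp4b1 made up 1.73 to 5.26% of the summed per-kilobase level in the Xist libraries and 16.3 to 31.7% in the Y libraries. Cyp2e1 made up 2.08 to 2.86% and 8.32 to 16.8%, whereas the Cyp2d genes together made up 20.5 to 24.6% in the Xist libraries and 6.27 to 12.3% in the Y libraries.

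**Figure D2:**
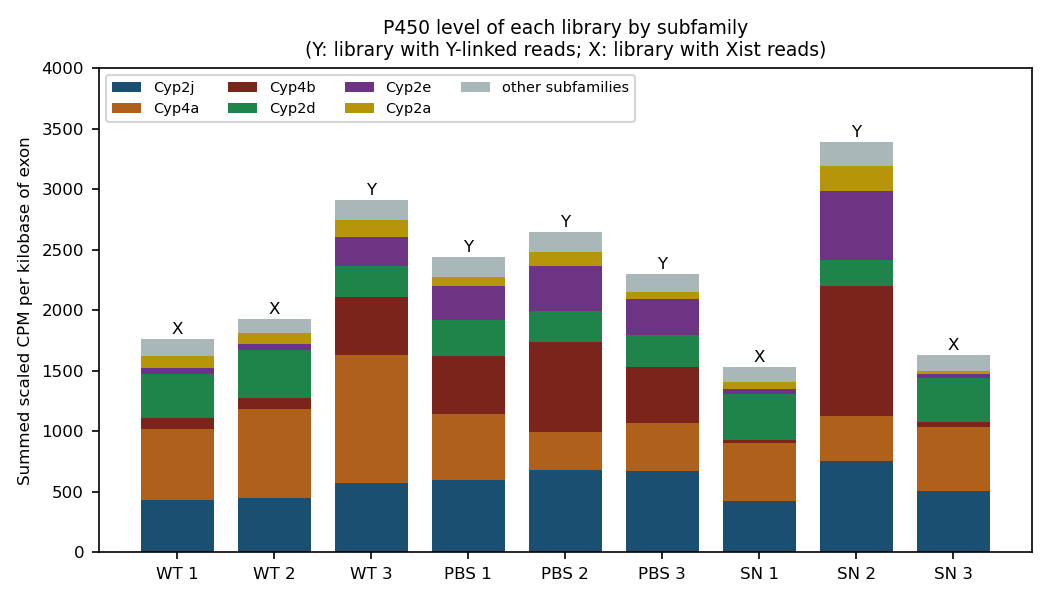
Summed scaled CPM per kilobase of the 46 members in each library, stacked by subfamily, with each library marked as Y or Xist. The 5 Y libraries reach higher than the 4 Xist libraries, and their Cyp4b and Cyp2e layers are the thicker ones.

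The difference between the Y and Xist libraries was tested as a term beside the group means in the edgeR quasi-likelihood fit over all genes. It is estimated within wild type and SN-011, each with 1 Y and 2 Xist libraries, while the PBS libraries add only to the spread. At a Benjamini-Hochberg adjusted p under 0.05, 11 of 46 members (23.9%) were called, against 3.65% of all genes tested. Of these, 8 were higher in Y libraries (17.4%, against 2.51% of all genes) and 3 were lower (6.52%, against 1.14%). In 11 members the values of the 5 Y and 4 Xist libraries did not overlap, 23.9% against 8.97% of all genes. The median log2 fold change was -0.02 over the members and -0.01 over all genes.

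Among the members that make or modify lipids, Cyp2j13 (GRCm38 chromosome 4, 96027534 to 96077546, minus strand), of the arachidonic acid epoxygenase subfamily, had the largest difference. Its scaled CPM was 0.802, 0.452 and 78.0 in wild type, 108, 169 and 114 in PBS, and 0.113, 282 and 0.119 in SN-011. The 4 Xist libraries held 17, 10, 2 and 2 reads and the Y libraries at least 1349. Cyp2j13 passed the rule of 0.5 CPM through the Y libraries. Its mean was 150 scaled CPM in them and 0.371 in the Xist libraries. Its choice therefore favours the direction tested, also in the count of members called above. On the log2 scale Y libraries were higher by 8.58 ± 0.46 (± SE here and below; adjusted p 3.8e-06), and the counts of 2 in the SN-011 libraries are under the 3 that a count of 0 allows. The promoter printed above for this gene held none of the 3 motifs in capitals.

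Cyp4b1 (chromosome 4, 115624725 to 115647723, minus strand), a fatty acid and xenobiotic hydroxylase, followed the same order of libraries. Its level was 209, 221 and 1069 in wild type, 1083, 1688 and 1038 in PBS, and 59.7, 2428 and 86.0 in SN-011. The Y libraries were all above the Xist libraries, with a log2 fold change of 3.90 ± 0.49 (adjusted p 0.0016). Cyp2e1 (chromosome 7, 140763739 to 140774987, plus strand), the ethanol-inducible enzyme, stood at 98.8, 92.9 and 523 in wild type, 594, 794 and 634 in PBS, and 94.3, 1228 and 73.3 in SN-011. It was higher by 3.22 ± 0.26 (adjusted p 8.41e-05), again with no overlap.

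Cyp7b1 (chromosome 3, 18071950 to 18243338, minus strand) hydroxylates oxysterols and some steroids. Its values were 3.63, 2.26 and 96.3 in wild type, 40.5, 72.7 and 39.3 in PBS, and 4.93, 207 and 5.10 in SN-011. The log2 fold change was 5.21 ± 0.25 (adjusted p 1.27e-06), and every Y library lay above every Xist library.

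The steroid hydroxylase gene Cyp2d9 (chromosome 15, 82433437 to 82456845, plus strand) stood at 66.1, 96.2 and 220 in wild type, 186, 217 and 195 in PBS, and 55.8, 225 and 27.4 in SN-011. It was higher in Y libraries by 1.96 ± 0.27 (adjusted p 0.00252). Of its exon bases 9.26% lie in other annotated genes, and 1.71% of its 150-base windows occur in paralogs, where read pairs could not be counted uniquely. Cyp2d26, of the same subfamily (chromosome 15, 82790101 to 82794294, minus strand) ran the other way, at 515, 560 and 278 in wild type, 341, 234 and 273 in PBS, and 575, 150 and 583 in SN-011. The log2 fold change of Cyp2d26 was -1.42 ± 0.22 (adjusted p 0.0052), with every Y library below every Xist library.

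A pair of renal epoxygenases moved in opposite directions. Cyp2j5 (chromosome 4, 96628773 to 96664154, minus strand) stood at 746, 771 and 1085 in wild type, 1085, 1234 and 1249 in PBS, and 746, 1343 and 934 in SN-011, higher in Y libraries by 0.60 ± 0.11 (adjusted p 0.0161). Cyp2c23 (chromosome 19, 44005022 to 44029208, minus strand) stood at 42.2, 46.9 and 28.1 in wild type, 24.6, 22.1 and 25.3 in PBS, and 45.96, 18.1 and 38.3 in SN-011, lower by 0.93 on the log2 scale (fold change -0.93 ± 0.14, adjusted p 0.00505). Neither gene had overlapping values between the kinds of library. Their relative Cyp2j11 was even, at 176, 192 and 150 in wild type, 175, 185 and 181 in PBS, and 163, 199 and 166 in SN-011, and was not called for the kind of library (adjusted p 0.996).

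Smaller or less even differences were called for 3 more. Cyp2d22 was 65.3, 61.0 and 47.3 in wild type, 55.7, 41.5 and 46.2 in PBS, and 66.7, 34.8 and 63.6 in SN-011, lower in Y libraries (-0.65 ± 0.14, adjusted p 0.0276). The fatty acid hydroxylase gene Cyp4a31 was 274, 313 and 429 in wild type, 297, 244 and 243 in PBS, and 146, 292 and 174 in SN-011, higher by 0.71 ± 0.12 (adjusted p 0.0107) with overlapping values. Cyp4a12a was 1.51, 2.94 and 12.3 in wild type, 3.71, 6.25 and 6.28 in PBS, and 8.78, 20.6 and 1.48 in SN-011, higher by 2.22 ± 0.47 (adjusted p 0.0279), also with overlap. Of the 150-base windows of Cyp4a12a, 25.6% occur in Cyp4a12b, so its counts are uncertain.

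**Figure D3:**
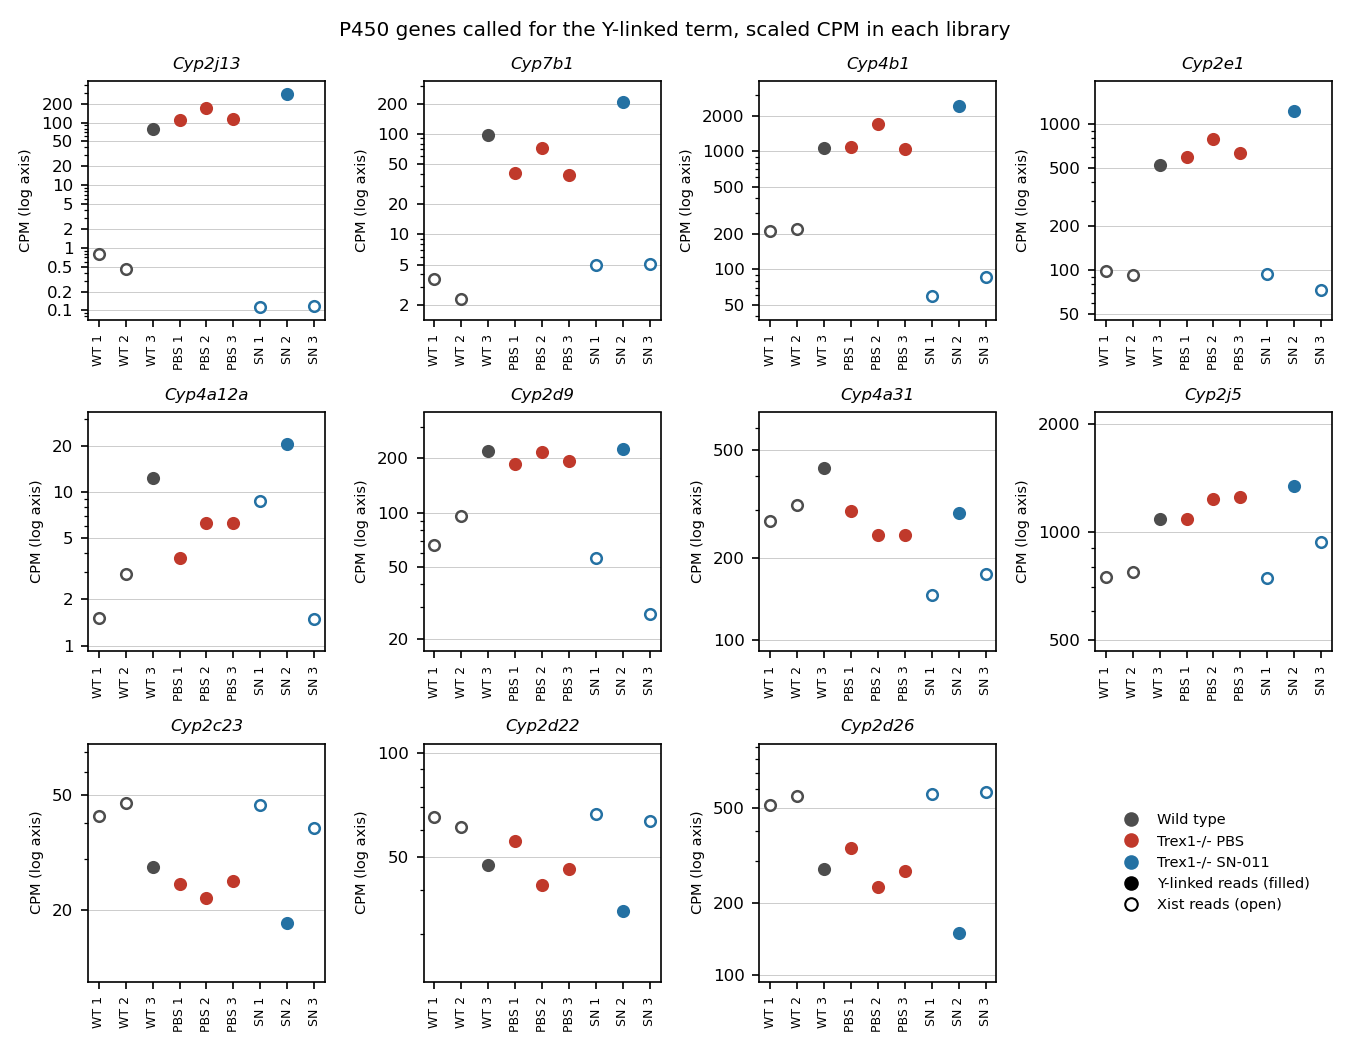
Scaled CPM on a log axis of the 11 members called for the difference between Y and Xist libraries, with a point for each library and the kind of library shown. Cyp2j13 goes from 0.113 in an Xist library to 282 in a Y library, whereas Cyp2d22 spans only 34.8 to 66.7.

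The Y-library side rests on WT replicate 3 and SN-011 replicate 2. Without SN-011 replicate 2, 8 members were called, of which 5 (Cyp2j13, Cyp7b1, Cyp4b1, Cyp2e1 and Cyp2d26) were among the 11. The share of all genes called in that fit is not given here, so the 8 cannot be set against it. The adjusted p was then 0.0778 for Cyp2c23, 0.355 for Cyp2d22, 0.0549 for Cyp2d9, 0.190 for Cyp2j5, 0.163 for Cyp4a12a and 0.190 for Cyp4a31, and the log2 fold change of Cyp4b1 was 2.31. Cyp4a12a also lost its call without WT replicate 1, 2 or 3 or PBS replicate 3 (adjusted p 0.0706, 0.064, 0.0905 and 0.0565), and Cyp2d22 without WT replicate 1 or SN-011 replicate 1 (0.0575 and 0.0701).

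Trex1-/- kidneys with PBS were compared with wild type to see which genes differ with the loss of TREX1. The only member called was Cyp2t4 (chromosome 7, 27153714 to 27158668, plus strand), 2.17% of the 46 against 1.88% of all genes tested. It was higher in PBS, while 9 members had an unadjusted p under 0.05, as had 2532 of all genes. In 16 members (34.8%) the PBS and wild-type values did not overlap, against 25.4% of all genes, with 8 higher and 8 lower. The median log2 fold change was -0.02 over the members and 0.00 over all genes. Fewer cells of a type and less RNA per cell cannot be told apart in whole kidney.

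Cyp2t4 passed the rule of 0.5 CPM through the Trex1-/- groups, since its mean was 0.316 scaled CPM in wild type, 0.944 in PBS and 0.656 in SN-011, so its choice favours the direction tested. It was among the least abundant members, with 7, 6 and 6 reads in wild type, 16, 18 and 13 in PBS and 13, 10 and 11 in SN-011. These reads correspond to 0.330, 0.271 and 0.347 CPM in wild type, 0.974, 1.05 and 0.808 in PBS, and 0.737, 0.580 and 0.653 in SN-011. The 3 groups did not overlap, and the edgeR log2 fold change of PBS against wild type was 1.57 ± 0.33 (adjusted p 0.0402). The adjusted p was 0.038 without SN-011 replicate 2 and 0.0566 to 0.215 without each of the other 8 libraries in turn, so the call was lost in those 8. With the Y term it was 0.156. The DESeq2 Wald test did not call Cyp2t4 (adjusted p 0.0776) and called 1 other member, Cyp4a10, in the opposite direction (lower in PBS, log2 fold change -0.82, adjusted p 0.0268). Of its exon bases 0.667% lie in Egln2 on the opposite strand.

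Among the vitamin D enzymes, Cyp24a1 (chromosome 2, 170482708 to 170497145, minus strand), which inactivates vitamin D, had the smallest adjusted p after Cyp2t4. Its level was 37.0, 29.0 and 46.3 in wild type, 139, 80.2 and 112 in PBS, and 44.6, 31.1 and 118 in SN-011. All PBS values were above all wild-type values, but the log2 fold change of 1.56 ± 0.43 missed the threshold (adjusted p 0.11). Without SN-011 replicate 2 or 3 the adjusted p was 0.0269 and 0.00958. No other single library left out led to a call, and with the Y term the adjusted p was 0.156. Of the 10 genes listed for vitamin D handling outside the family, none was called in any of the 3 group comparisons.

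Cyp27b1 (chromosome 10, 127048250 to 127053006, plus strand), which makes the active hormone, stood at 5.56, 5.19 and 29.2 in wild type, 20.6, 18.4 and 14.2 in PBS, and 23.5, 10.03 and 17.7 in SN-011. WT replicate 3 was thus the highest of all 9 libraries and the other wild-type libraries were the lowest. Cyp2r1, a vitamin D hydroxylase of the first step, was at 0.896, 1.72 and 1.04 in wild type, 0.974, 1.63 and 0.994 in PBS, and 0.850, 0.985 and 1.19 in SN-011, under 2 in every library. Cyp27a1, the mitochondrial sterol hydroxylase, was at 57.3, 57.4 and 49.4 in wild type, 53.7, 49.7 and 47.5 in PBS, and 36.7, 54.9 and 31.8 in SN-011.

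The Cyp4a genes hydroxylate fatty acids, arachidonic acid included, and are known targets of the nuclear receptor PPARα. All 6 members of this subfamily lie on chromosome 4 within 115299046 to 115621602. Cyp4a14 was 706, 834 and 1154 in wild type, 512, 206 and 322 in PBS, and 703, 213 and 673 in SN-011. Cyp4a10 was 433, 598 and 892 in wild type, 464, 270 and 358 in PBS, and 292, 327 and 416 in SN-011. PBS values lay below wild type without overlap for Cyp4a14 and with overlap for Cyp4a10. The log2 fold changes of PBS against wild type were -1.37 ± 0.44 (adjusted p 0.168) for Cyp4a14, -0.82 ± 0.27 (0.177) for Cyp4a10 and -0.38 ± 0.25 (0.510) for Cyp4a31, none of them called. Without SN-011 replicate 2 the adjusted p of Cyp4a14 was 0.0264, and no other single library left out led to its call. With the Y term the adjusted p was 0.378 for Cyp4a14 and 0.141 for Cyp4a10, while Cyp4a31 was called at -0.83 (adjusted p 0.0201).

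WT replicate 3 stood apart in this group of genes. Cyp4a10, Cyp4a14, Cyp4a31 and Cyp4a12b were each highest there of all 9 libraries, and Cyp4a12b stood at 32.1 against 4.56 to 19.8 in the others. The non-P450 PPARα targets, 13 genes, summed to 4489 CPM in that library and to 2184 to 3988 CPM in the other 8. None of the 13 was called in any of the 3 group comparisons. The part of this library in the Cyp4a values was measured by leaving it out, whereupon the log2 fold change of Cyp4a10 in PBS against wild type was -0.51 and that of Cyp4a14 was -1.11. Cyp4a12b was then called higher in both Trex1-/- groups than in wild type, by 1.52 in PBS (adjusted p 0.0266) and 1.52 in SN-011 (0.0395). Cyp27b1 was also called higher in both (1.72, 0.0237, and 1.66, 0.041), and Cyp4f18 in PBS (1.25, 0.0443). The share of all genes called in that fit is not given here. Without WT replicate 3, wild type held only Xist libraries and PBS only Y libraries. Group and kind of library therefore cannot be told apart in that PBS comparison. Among Y libraries, with WT replicate 3 as the only wild-type library, PBS against wild type was at -1.21 for Cyp4a12b, -0.72 for Cyp27b1 and 0.07 for Cyp4f18.

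Cyp4f14, which belongs to the leukotriene and fatty acid hydroxylases, held 133, 85 and 33 reads in wild type, 12, 18 and 28 in PBS and 2, 23 and 8 in SN-011. Its scaled values were 6.27, 3.84 and 1.91, then 0.731, 1.05 and 1.74, then 0.113, 1.33 and 0.475, so both Trex1-/- groups lay below wild type. The log2 fold change was -1.78 ± 0.61 (adjusted p 0.200) for PBS and -2.64 ± 0.65 (adjusted p 0.0847) for SN-011, both against the same wild-type libraries. Without SN-011 replicate 2 the SN-011 value was -3.77 (adjusted p 0.025). Among Y libraries alone, the log2 fold change against wild type was -0.70 for PBS and -0.49 for SN-011.

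Cyp4f13 was at 46.3 to 47.7 in wild type, 41.8 to 43.5 in PBS and 41.0 to 42.4 in SN-011, narrow ranges with wild type above both Trex1-/- groups. The Ahr-regulated Cyp1a1 was 2.45, 1.85 and 3.24 in wild type, 0.974, 1.81 and 1.74 in PBS, and 2.27, 2.32 and 1.603 in SN-011, with a PBS fold change of -0.73 ± 0.32 (adjusted p 0.315). Cyp1b1, which oxidises estrogens and foreign compounds, was 40.4, 30.03 and 36.6 in wild type, 54.7, 47.9 and 42.3 in PBS, and 30.4, 47.6 and 27.4 in SN-011. Neither gene was called in the 3 group comparisons, and none of the 4 tested Ahr targets outside the family was called. Cyp1a2 had 0 reads in all libraries.

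The retinoic acid hydroxylases were low or scattered. Cyp26b1 was 96.8, 14.9 and 46.9 in wild type, 28.7, 44.5 and 16.9 in PBS, and 43.0, 31.1 and 20.9 in SN-011, so wild type alone spanned the whole range. Cyp26a1 stood between 0.406 and 1.53 in all 9 libraries. Of the adrenal-type enzymes, none was a member, and Cyp11a1, Cyp11b1 and Cyp21a1 had 8, 1 and 7 reads in all 9 libraries together. Cyp51, the sterol demethylase whose symbol lies outside the rule, was at 148 to 412 scaled CPM and was not called in any comparison.

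**Figure D4:**
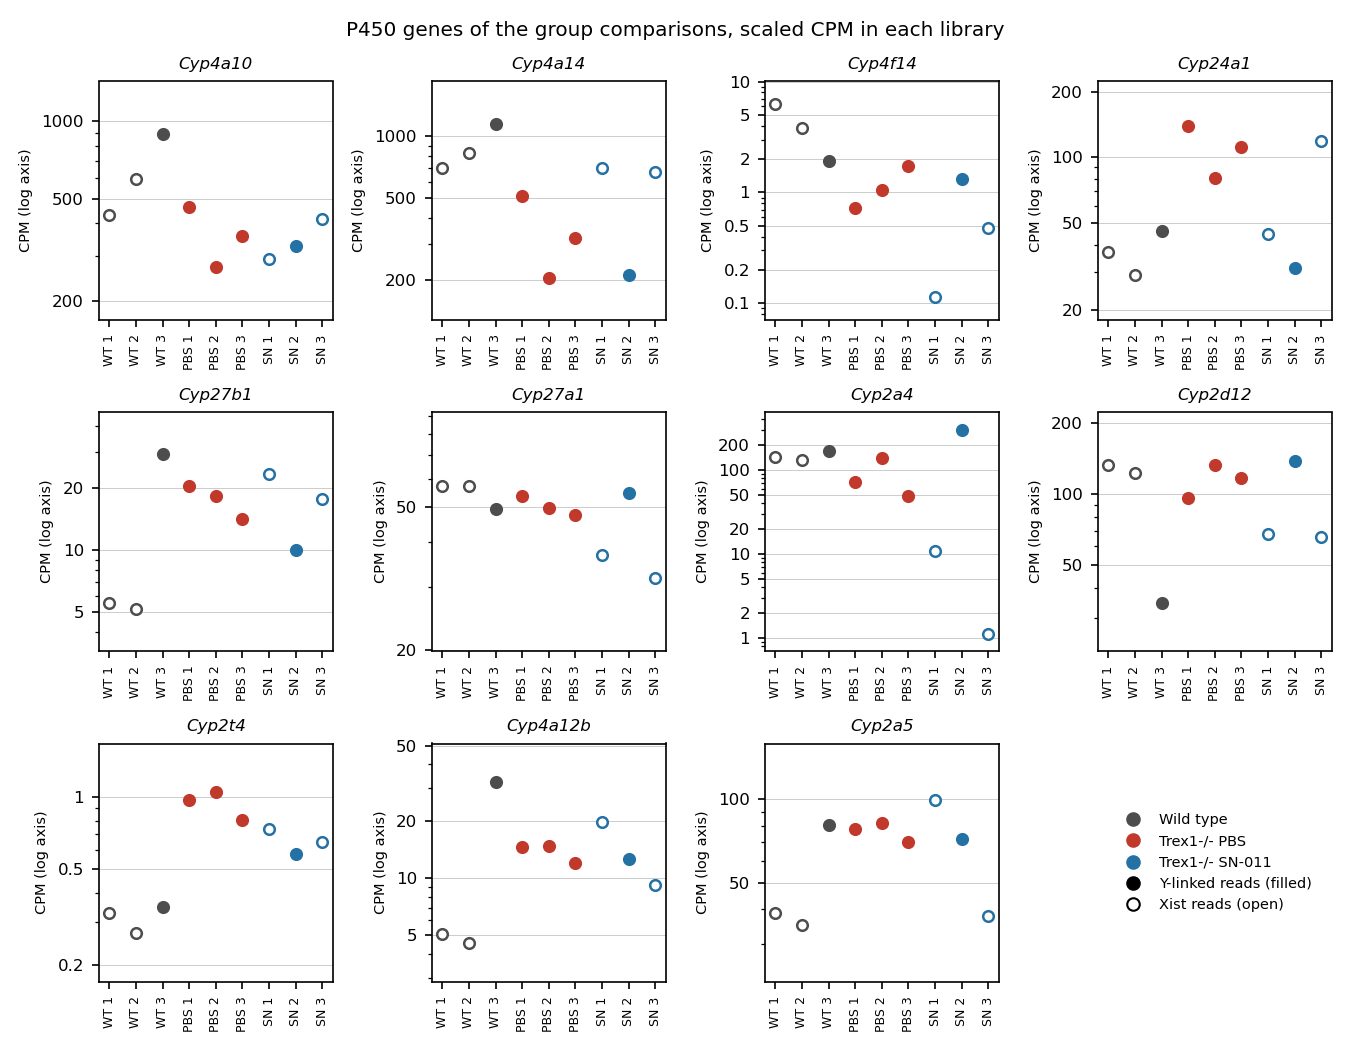
Scaled CPM per library of 11 members in the 3 groups, with a point for each library and the kind of library shown. Cyp2t4 separates all 3 groups at values of 0.271 to 1.05, whereas Cyp2a4 spans 1.13 to 303 within SN-011 alone.

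SN-011 was compared with PBS in Trex1-/- kidneys to see what the antagonist changes. No member was called, and 0.0% of all genes were called by the edgeR quasi-likelihood test. At an unadjusted p under 0.05 there were 1 member and 1905 genes. DESeq2 called 183 of all genes and the edgeR exact test 127, but no member by either. The values of 1 member, Cyp2t4, did not overlap (lower in SN-011), 2.17% against 16.1% of all genes. The median log2 fold change was -0.04 over the members and -0.01 over all genes.

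The spread within the SN-011 group was also wide for Cyp2a4, although the edgeR quasi-likelihood test did not call it for the kind of library (log2 fold change 3.53 ± 1.13, adjusted p 0.125, with overlapping values). The DESeq2 Wald test did, as did the fits with a replicate block, with no filter on low counts and without WT replicate 3. Cyp2a4, a steroid hydroxylase, was 144, 132 and 170 in wild type, 72.2, 139 and 48.7 in PBS, and 10.8, 303 and 1.13 in SN-011. Cyp2a5, its coumarin-hydroxylating paralog, was 38.8, 35.2 and 80.6, then 77.7, 82.0 and 69.8, then 98.8, 71.99 and 37.8. The highest Cyp2a4 value of all 9 libraries was that of the single Y library of SN-011, while its 2 lowest were those of the Xist libraries of the same group. For SN-011 against PBS, the log2 fold change was -0.57 ± 1.16 (adjusted p 0.887) for Cyp4b1, 0.51 ± 1.44 (0.920) for Cyp7b1, 0.93 ± 0.84 (0.713) for Cyp4a12a and -0.77 ± 0.42 (0.511) for Cyp24a1.

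Without SN-011 replicate 2, the comparison was of 3 Y libraries with 2 Xist libraries. It then called 7 members (15.2%, against 3.05% of all genes), with Cyp2c23 higher and Cyp1b1, Cyp27a1, Cyp2a4, Cyp2d9, Cyp2e1 and Cyp4b1 lower. The log2 fold change of Cyp4b1 was then -4.13 (adjusted p 0.0211), that of Cyp7b1 -3.34 (0.209) and that of Cyp4a12a -0.07. Cyp2a4 went from 0.28 with all libraries to -3.86 (0.0209). Group and kind of library cannot be told apart in that subset. Within Y libraries, where SN-011 replicate 2 is compared alone with 3 PBS libraries and is assumed to vary like them, 3 members were called (6.52%, against 0.601% of all genes). Cyp7b1 was higher by 2.05 ± 0.28 (adjusted p 0.0256), Cyp4a12a was higher by 1.95 ± 0.25 (0.0216), and Cyp24a1 was lower (-1.80 ± 0.29, 0.0367). Treatment and that single library cannot be told apart in these values. With the Y term in the fit over all 9 libraries no member was called, as 0.0% of all genes were.

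SN-011 was also compared with wild type, which asks what remained different after treatment. No member was called, against 1.28% of all genes, while 6 members and 2998 genes had an unadjusted p under 0.05. DESeq2 called 3 members (Cyp4a10, Cyp4a31 and Cyp4f14, all lower) and 806 of all genes. The edgeR exact test called 1 member and 597 of all genes. In 5 members (10.9%, against 21.7% of all genes) the values did not overlap, with Cyp2t4 higher and Cyp4a10, Cyp4a14, Cyp4f13 and Cyp4f14 lower. The log2 fold changes were -0.89 ± 0.27 (adjusted p 0.131) for Cyp4a10, -0.73 ± 0.25 (0.167) for Cyp4a31, 1.05 ± 0.34 (0.152) for Cyp2t4 and -0.41 ± 0.17 (0.247) for Cyp27a1. Without SN-011 replicate 2, 4 members and 376 of all genes were called. Cyp4a31 was at -1.09 (0.019), Cyp27a1 at -0.68 (0.0132) and Cyp2a4 at -4.64 (0.0104). In that fit SN-011 held only Xist libraries while wild type still held WT replicate 3, a Y library. Among Y libraries the log2 fold changes were -0.53 for Cyp4a31, 0.18 for Cyp27a1 and 0.85 for Cyp2a4. By comparison, 10 of 10 listed interferon-induced genes were called higher in SN-011 than in wild type, and 10 of 10 in PBS.

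**Figure D5:**
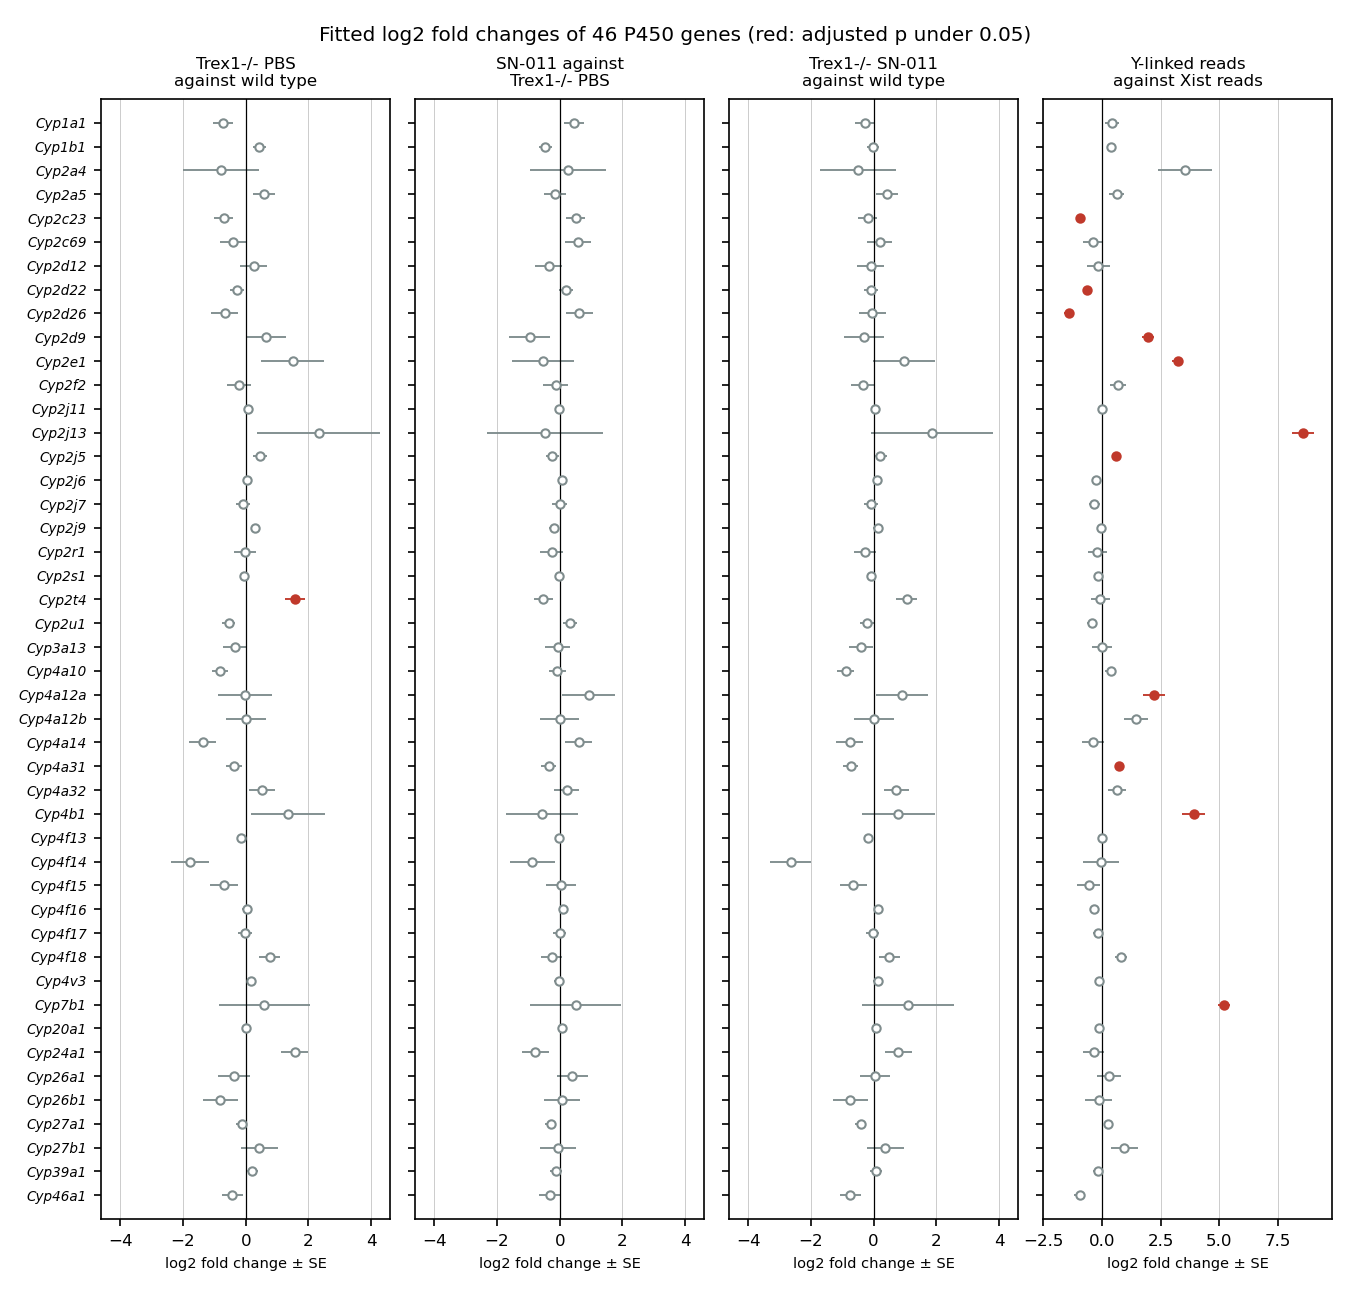
Log2 fold change (point) and SE (bar) of the 46 members in the 3 group comparisons and for the Y and Xist libraries, with members past an adjusted p of 0.05 in red. The group panels share an axis and hold 1 red point in all (Cyp2t4), whereas the panel for the kind of library, on a wider axis, holds 11.

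Wild type and SN-011 each held both kinds of library, so their difference was also fitted within each kind. The 2 kinds differed in it for 4 members (8.70%, against 0.499% of all genes) by an interaction term. Among Xist libraries (2 against 2), 7 members were called (15.2%, against 2.67% of all genes), 1 higher and 6 lower in SN-011. Cyp27b1 was higher by 1.94 ± 0.18 (adjusted p 0.00281). The 6 lower members were Cyp2a4 (-4.52 ± 0.59), Cyp4f14 (-4.09 ± 0.55), Cyp4b1 (-1.56 ± 0.16), Cyp2d12 (-0.93 ± 0.09), Cyp4a31 (-0.88 ± 0.12) and Cyp27a1 (-0.75 ± 0.10), with adjusted p from 0.00281 to 0.0112.

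Among Y libraries there was 1 library of each group, with the spread taken from the PBS libraries, so the test compared those 2 libraries and not the conditions. It called 5 members (10.9%, against 1.99% of all genes). Cyp2d12, a member of the Cyp2d cluster on chromosome 15, stood at 34.7 in WT replicate 3 and 138 in SN-011 replicate 2 (2.01 ± 0.22, adjusted p 0.00724). In the Xist libraries it stood at 132 and 122 in wild type and 67.5 and 65.8 in SN-011, the opposite order, and in PBS at 96.2, 132 and 117. Cyp2j13 and Cyp2e1 were higher in SN-011 (1.88 ± 0.30 and 1.26 ± 0.22), and Cyp27b1 and Cyp4a12b were lower (-1.52 ± 0.26 and -1.32 ± 0.21).

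PBS against wild type within Y libraries compared 3 libraries with WT replicate 3 alone, which is assumed to vary like the PBS libraries, and called 3 members (6.52%, against 1.42% of all genes). Genotype and that single library, the highest of all 9 for Cyp4a10 and Cyp4a12b, cannot be told apart in it. Cyp2d12 was higher (1.73 ± 0.20, adjusted p 0.00544), while Cyp4a10 (-1.30 ± 0.24, 0.0403) and Cyp4a12b (-1.21 ± 0.16, 0.0101) were lower. With the Y term over all 9 libraries, Cyp4a31 was the 1 member called in PBS against wild type (2.17%, against 1.19% of all genes). It was also the 1 member called in SN-011 against wild type (-0.77, adjusted p 0.00891, against 3.94% of all genes).

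Lists of genes that act with the P450 enzymes were read from the same fit. None of the 8 tested redox partners, 12 heme genes, 20 nuclear receptors and Ahr genes or 7 epoxide hydrolases and flavin monooxygenases was called in any of the 3 group comparisons. The shares of all genes called there were 1.88%, 0.0% and 1.28%. Between Y and Xist libraries, where 3.65% of all genes were called, 2 of the 8 redox partners were higher, Cyb5a by 0.85 ± 0.16 (adjusted p 0.0171) and Cyb5r3 by 0.41 ± 0.09 (0.0291), whereas Por, the reductase, was not called. Of the heme genes 3 were higher, Cpox, Hmox1 and the synthesis enzyme Alas1, and of the nuclear receptors only Nr1h4. Ephx2, which hydrolyses the epoxides that Cyp2j and Cyp2c enzymes make, was higher by 1.04 ± 0.11, and Fmo5 by 2.54 ± 0.22. Of the 13 PPARα targets 4 were higher, Ehhadh, Vnn1 and Angptl4 among them. In the list of 7 sex-biased kidney transcripts, 3 were higher in Y libraries (Slco1a1, Slc7a13 and Acsm3) and 2 lower (Prlr and Slc7a12).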

How the data were processed

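PolyA RNA of mouse kidney was sequenced in 9 libraries, 3 per group. Per the labels and methods, the authors trimmed reads with Trimmomatic, aligned them to mm10 with HISAT2 and counted unique pairs per gene with featureCounts. The methods call the library preparation strand-specific and the labels call it standard. Tool versions, the annotation release and the strand setting of the counting are not given in the sources used here, so it is not known whether reads of overlapping antisense genes were separated. The deposited values are raw counts per Ensembl gene, of which 54495 of 54532 matched GENCODE vM21.

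The tests were run on the counts by edgeR 4.0.16 in R 4.3.3 (filterByExpr with a minimum count of 10 and a minimum total of 15, TMM scaling, glmQLFit and glmQLFTest, 1 mean per group, all 9 libraries). Adjusted p-values are Benjamini-Hochberg over 16646 genes, called under 0.05, and the SE was derived from the F statistic. DESeq2 1.42.0 and limma 3.58.1 were installed, DESeq2 serving as an alternative. Figures were drawn with Python 3.11.15, pandas 2.3.3 and matplotlib 3.10.9. The fits were tested on simulated data. Libraries with over 10 CPM of 4 Y-linked genes were given a Y term. Read sharing was measured in windows of 150 bases.

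Members and lists were chosen with earlier results of these data known. Per-library values are given for the 12 highest members per kilobase, members called, and the vitamin D, sterol, Ahr-regulated and retinoid enzymes; others named were chosen after their values were seen. Depth was 16118813 to 21928965 counts, and intervals cover counting error only. No 2 replicates agreed within sampling noise. Some genes of the lists are not reported here by name.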

Additional observations from a re-analysis of the deposited data

Results flagged for a closer look

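The difference between SN-011 and wild type was compared between the 2 kinds of library by an interaction term in the edgeR quasi-likelihood fit, which called 4 of 46 members (8.70%, against 0.499% of all genes). Each value is the log2 fold change of SN-011 against wild type in Y libraries minus that in Xist libraries, and each Y side is 1 library against 1 library. Whether the difference belongs to those libraries or to the kind of library cannot be told apart.

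Cyp27b1 differed by -3.48 ± 0.34 (adjusted p 0.0019), since it stood at 29.2 and 10.03 scaled CPM in the Y libraries of wild type and SN-011 but at 5.56 and 5.19 against 23.5 and 17.7 in the Xist libraries. Cyp2d12 differed by 2.92 ± 0.24 (adjusted p 0.000702), with 34.7 and 138 in the Y libraries and 132 and 122 against 67.5 and 65.8 in the Xist libraries. For Cyp4a12b the difference was -2.93 ± 0.49 (adjusted p 0.0328), with 32.1 and 12.6 in the Y libraries and 5.09 and 4.56 against 19.8 and 9.20 in the Xist libraries, and 25.9% of its 150-base windows occur in Cyp4a12a. For Cyp4b1 it was 2.74 ± 0.40 (adjusted p 0.0203), with 1069 and 2428 in the Y libraries and 209 and 221 against 59.7 and 86.0 in the Xist libraries. In all 4 genes the 2 kinds of library ran in opposite directions, and in Cyp27b1 and Cyp4a12b WT replicate 3 was the highest of all 9 libraries.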

How the results depend on the processing

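The precision was limited by groups of 3, by the unlabelled Y and Xist kinds of library and, for Cyp2t4 and Cyp4f14, by counts of a few reads. Scaling by DESeq2 size factors changed no count of calls by over 1.5 times. The cause of the changes that follow was not tested, except that fits on fewer libraries hold fewer samples.

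For PBS against wild type, 313 genes and 1 member became 707 and 4 with no filter on low counts, 726 genes with the DESeq2 Wald test, 686 and 2 with the edgeR exact test, 751 and 3 with only the 6 libraries compared, 198 genes with the Y term, and 3 members in Y libraries only. For SN-011 against PBS, 0 genes became 127 with no filter, 183 with DESeq2, 127 with the exact test and 100 in Y libraries only, where 3 members were called. For SN-011 against wild type, 213 genes and 0 members became 607 and 3 with no filter, 806 and 3 with DESeq2, 597 and 1 with the exact test, 43 genes with the 6 libraries, 656 and 1 with the Y term, 332 and 5 in Y libraries, and 445 and 7 in Xist libraries. The 11 members of the Y term became 19 with no filter. The share of all genes called for the Y term is given only for the main fit. This rise, and the range for the Y term below, therefore cannot be set against it. A threshold of 1 CPM for members left 42 of 46.

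Leaving out each library in turn gave 153 to 774 genes and 0 to 4 members for PBS against wild type, 0 to 519 and 0 to 7 for SN-011 against PBS, 38 to 376 and 0 to 4 for SN-011 against wild type, and 8 to 16 members for the Y term. The highest of these came without SN-011 replicate 2, except that of the Y term, which came without WT replicate 3.

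Signs were followed in SN-011 against PBS for Cyp24a1, Cyp4b1, Cyp7b1 and Cyp4a12a, in SN-011 against wild type for Cyp4a10, Cyp4a31, Cyp4f14, Cyp2t4, Cyp27b1, Cyp2d12, Cyp2a4, Cyp4b1 and Cyp27a1, and in PBS against wild type for Cyp2t4, Cyp24a1, Cyp4a14, Cyp4a10, Cyp4a31, Cyp4f14, Cyp2c23 and Cyp1a1, none of which turned. Of these, the sign turned in SN-011 against PBS for Cyp4b1 (0.28 with the Y term, 0.96 in Y libraries) and for Cyp7b1 (-0.59 with the replicate block). In SN-011 against wild type it turned in Y libraries for Cyp27b1 (-1.52), Cyp2d12 (2.01), Cyp2a4 (0.85) and Cyp27a1 (0.18), and for Cyp4b1 with the replicate block (-0.55), with the Y term (-0.69) and in Xist libraries (-1.56). With single libraries left out, it also turned in SN-011 against PBS for Cyp7b1 (range -3.34 to 1.07) and Cyp4a12a (-0.074 to 1.44). In SN-011 against wild type it turned for Cyp27b1 (-0.018 to 1.66), Cyp2d12 (-0.54 to 0.20), Cyp2a4 (-4.64 to 0.075) and Cyp4b1 (-2.78 to 2.00). Further members outside these lists turned too, among them Cyp2j13 (1.85 to -7.72), Cyp7b1 (1.10 to -2.74), Cyp2e1 (0.97 to -1.51), Cyp4a12a, Cyp2c23, Cyp2d22, Cyp2d26 and Cyp2j5 in SN-011 against wild type without SN-011 replicate 2, none of them called there with or without it.

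Same-numbered libraries share only a number: the correlation of their deviations was -0.29 to 0.24 over 9 pairs, and 5 were over 0.1. With the replicate number as a block, 312, 0 and 231 genes were called in the 3 comparisons. The member called in PBS against wild type was then Cyp24a1 in place of Cyp2t4, and 10 of the 11 members of the Y term remained, with Cyp4a12a lost and Cyp2a4 gained.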
